A study of Caenorhabditis elegans with 51 samples.

Results

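The glutathione S-transferase genes of *C. elegans* were followed across 8 mutant strains. The members were the genes whose symbol begins with *gst*, *gstk* or *gsto* and a number, without *gst-4* and *gst-19*. There were 40 such genes. Of these, 38 were listed among the 14033 genes of a table of 39 libraries and 39 among the 14596 genes of a table of 12 libraries, with 37 in both. *gst-2* and *gst-25* were listed only in the table of 12 libraries and *gsto-2* only in the table of 39. In the WBcel235 assembly, 20 of the 40 lie on chromosome II, 8 on V, 4 each on III and IV and 2 each on I and X. Many lie close together. Members with at most 2 other protein-coding genes between them are called neighbours in a run here. A run of 6 neighbours, *gst-20*, *gst-24*, *gst-15*, *gst-14*, *gst-12* and *gst-16*, spans II:13608154-13624440. Another run of 6, *gst-26*, *gst-27*, *gst-28*, *gst-29*, *gst-39* and *gst-31*, spans II:15163817-15174965. *gst-6* and *gst-7* are neighbours at II:4879891-4883358.

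Glutathione S-transferases join the tripeptide glutathione to reactive, electrophilic molecules, such as plant toxins, drugs and products of lipid peroxidation, so that exporters can remove them from the cell. Nematodes carry a large set of these genes, many of them in tandem, and a number of them are known targets of SKN-1, the worm counterpart of the Nrf transcription factors, which WDR-23 holds in check. Some members belong to classes found across animals. GST-1 and GST-10 are pi-class enzymes, and GST-10 conjugates hydroxynonenal, a product of lipid peroxidation. GST-42 and GST-43 are zeta-class enzymes, a class that acts as maleylacetoacetate isomerase in tyrosine breakdown. The *gsto* genes encode omega-class and the *gstk* genes kappa-class enzymes. For the other members no single function is given here.

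RNA was sequenced from whole worms, prefertile young adults grown at 20 °C on *E. coli* OP50. The table of 39 libraries held 6 libraries each of *daf-2(e1370)* worms, of *nuo-6(qm200)* worms, of *isp-1(qm150)* worms and of *clk-1(qm30)* worms, 3 each of *sod-1* and *prdx-2* worms and of libraries labelled *ctl-1*, and 6 of wild-type N2 worms. The table of 12 libraries held 6 of *sod-2(ok1030)* worms and 6 of wild-type N2 worms. The alleles of *sod-1*, *prdx-2* and *ctl-1* are not given in the sources used here. *clk-1* encodes an enzyme of ubiquinone synthesis, *isp-1* the Rieske iron-sulfur protein of complex III and *nuo-6* a subunit of complex I. *daf-2* encodes the insulin-IGF1 receptor. *sod-1* and *sod-2* encode the main cytosolic and mitochondrial superoxide dismutases, *prdx-2* a peroxiredoxin and *ctl-1* a catalase.

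Values are normalized CPM, that is, reads of a gene relative to the size of its library after the authors' scaling. A library held 21434437 to 28805205 reads in the larger table and 22586580 to 33412986 in the smaller one. The mutated genes were as follows. *sod-1* mRNA was 4.28 ± 0.365 in *sod-1* worms and 163 ± 5.59 in wild-type worms, *prdx-2* mRNA was 64.3 ± 6.46 in *prdx-2* worms and 562 ± 134 in wild-type worms, *sod-2* mRNA was 0.278 ± 0.214 in *sod-2* worms and 86.4 ± 3.79 in their wild-type worms, and the *clk-1* mutants had 9.99 ± 1.22 of *clk-1* mRNA, against 22.4 ± 3.02 in N2 (SD). The mRNA of *isp-1* did not pass the test in *isp-1* worms, and those of *nuo-6* and *daf-2* were higher in their own mutants, so the RNA level does not check these 3 labels. In the libraries labelled *ctl-1*, *ctl-1* mRNA was 2.38 ± 0.541, against 2.29 ± 0.411 in wild-type worms (adjusted p = 0.967). The design text calls the replicates biological. A p-value sets a difference against the spread between libraries within groups, estimated over all groups of a table together. In the larger table a gene therefore has the same SE in every strain with 6 libraries, however uneven the libraries of that strain are.

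In wild-type worms the family was dominated by a few genes. Scaled to the length of the exons, *gst-1* had the highest level, 351 ± 196 normalized CPM per kb (SD, n = 6), and was the only member whose 6 libraries all lay above those of the next in order. *gst-1* made up 30% of the summed level of the 38 members, and *gst-1*, *gst-10*, *gst-36* and *gst-7* together 55.8%. Next in order per kb came *gst-27*, *gst-26* and *gst-13*. Of the 37 pairs of neighbours in the order, only that of *gst-1* and *gst-10* was apart. Without scaling to length, the mean reached 10 normalized CPM in 16 members and stayed below 1 in 5. Wild-type libraries varied among themselves: the SD was 12.4% to 80.9% of the mean, with a median of 32.2%. *gst-1* itself was uneven, at 144, 154, 461, 168, 212 and 438 normalized CPM in wild-type replicates 7 to 12, so that replicates 9 and 12 stood far above the other 4.

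The number of members called at a false discovery rate below 0.05 (limma, adjusted over all genes) differed widely between the strains. In *nuo-6* worms, 24 of 38 members were upregulated, where 22.5% of all genes tested were called higher, and 0 were downregulated (background 14%; also 0 at an unadjusted p under 0.05 and 0 by edgeR). In *prdx-2* worms, 18 members were upregulated (background 6.51%) and 2 were downregulated (background 6.51%). In *isp-1* worms, 15 members were upregulated (background 11%) and 0 were downregulated (background 10.3%; also 0 at an unadjusted p under 0.05 and 0 by edgeR). In *daf-2* worms, 15 were upregulated (background 17.4%) and 3 were downregulated (background 16.3%). In *clk-1* worms, 2 were upregulated (background 6.0%) and 1 was downregulated (background 2.27%), and in a fit of *clk-1* and wild-type worms alone 5 were upregulated. The share of all genes called in that fit is not given here. Leaving out wild-type replicate 7 or 8 or *clk-1* replicate 1 or 3 left 1 member higher in *clk-1* worms. The count lower in *daf-2* worms was 1 without wild-type replicate 10 or *daf-2* replicate 4 or 6 and 5 without *daf-2* replicate 2. Of the 39 members in the *sod-2* table, 3 were upregulated in *sod-2* worms (background 2.34%) and 0 were downregulated (background 0.692%; 1 at an unadjusted p under 0.05 and 0 by edgeR). In the libraries labelled *ctl-1*, 1 of 38 was downregulated (background 1.57%) and 0 were upregulated (background 1.05%; also 0 at an unadjusted p under 0.05 and 0 by edgeR). In *sod-1* worms, 0 were called in either direction (background 2.57%; 2 at an unadjusted p under 0.05 and 0 by edgeR).

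**Figure D1:**
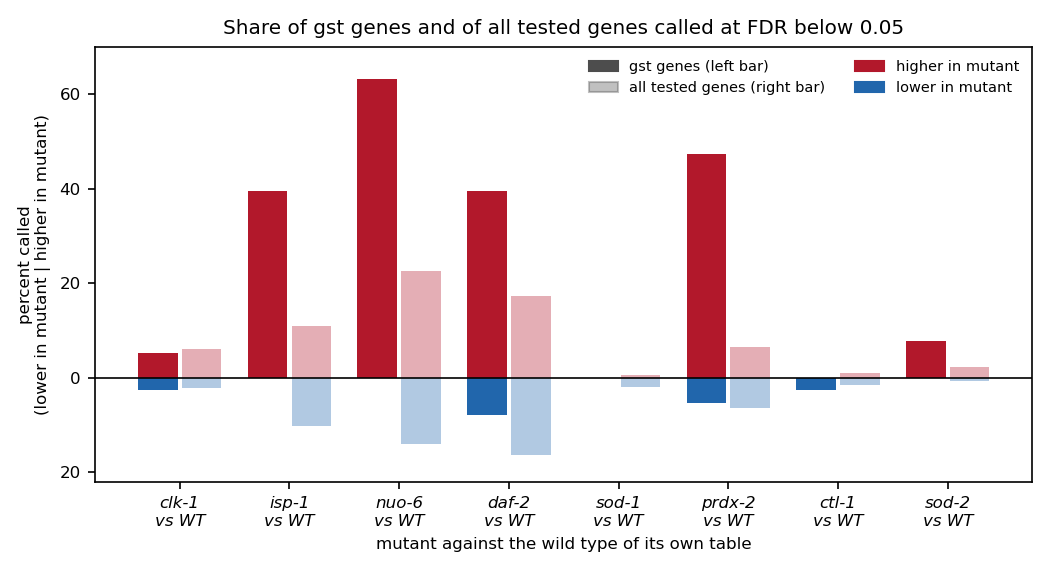
Percent of the *gst* genes (left bar, solid) and of all tested genes (right bar, pale) called at a false discovery rate below 0.05, higher (red, upward) or lower (blue, downward) in each mutant than in the wild type of its own table; the column ctl-1 stands for the libraries labelled *ctl-1*. The upward bars of the *gst* genes stand above the paler ones in *isp-1*, *nuo-6*, *daf-2*, *prdx-2* and *sod-2* worms, with 15, 24, 15, 18 and 3 genes.

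The median log2 fold change over the members, where a positive value means a higher level in the mutant, was 0.16 (*clk-1*), 0.51 (*isp-1*), 0.74 (*nuo-6*), 0.47 (*daf-2*), 0.02 in *sod-1*, 0.75 in *prdx-2*, -0.03 in the libraries labelled *ctl-1* and 0.34 in *sod-2* worms, while that over all genes lay between -0.02 and 0.02. The 7 comparisons within the larger table share their 6 wild-type libraries. The summed level of the 38 members was 870 ± 181 normalized CPM among *clk-1* libraries, 1054 ± 105 among *isp-1* libraries, 1469 ± 399 in *nuo-6*, 1249 ± 244 in *daf-2*, 822 ± 106 in *sod-1*, 1598 ± 271 in *prdx-2* worms, 618 ± 29.5 in the libraries labelled *ctl-1* and 876 ± 237 in wild-type worms (SD). The 3 *prdx-2* libraries, at 1341 to 1882, all lay above the wild-type libraries, at 601 to 1259. The sum over the 39 members of the smaller table was 1021 ± 241 in *sod-2* and 882 ± 201 in wild-type worms, with overlapping libraries. Each value is for whole worms, so that fewer cells of a type and less RNA per cell cannot be told apart.

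Markers of tissues were read beside these counts. In *prdx-2* worms, 3 of 4 body wall muscle, 1 of 5 intestinal and 1 of 5 germline markers were lower. The summed markers of *prdx-2* worms lay wholly below wild type for intestine (1109 to 1231 normalized CPM, against 1597 to 2976 in wild-type worms), hypodermis (1583 to 1731, against 1915 to 3232) and body wall muscle (7894 to 8425, against 8951 to 16197). In *nuo-6* worms, 2 of 5 hypodermal, 2 of 5 neuronal and 1 of 5 intestinal markers were higher, while 2 of 5 germline and 2 of 6 oocyte and embryo markers were lower, and the summed germline markers were 1102 to 1508, against 1716 to 2355 in wild-type worms, without overlap. Their summed hypodermal markers were 3179 to 5458, overlapping with the 1915 to 3232 of wild-type worms. In *isp-1* worms, 4 of 5 sperm, both pharyngeal and 1 of 5 germline markers were lower. In *daf-2* worms, both pharyngeal, 2 of 5 germline and 2 of 6 oocyte and embryo markers were lower, and 1 intestinal, 1 neuronal and 1 sperm marker were higher. No hypodermal marker was called in *daf-2* worms, but their sum was 3320 to 3785, wholly above the 1915 to 3232 of wild-type worms. In *clk-1* worms none of the markers of the 8 tissue lists was called. The part of these differences in the changes of the *gst* genes was not tested.

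**Figure D2:**
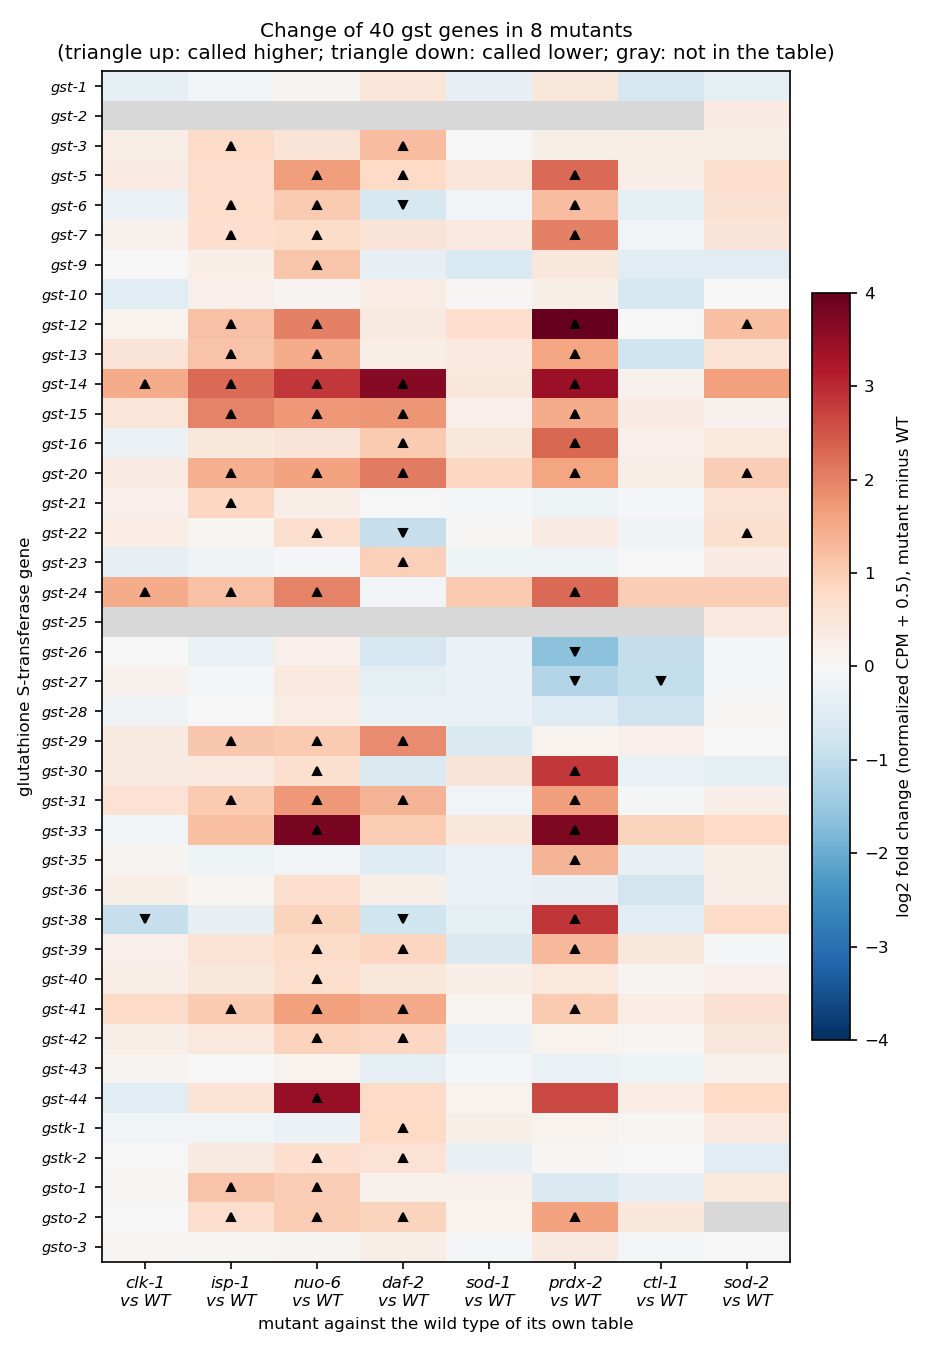
Log2 fold change (normalized CPM plus 0.5, mutant minus wild type; color) of each of the 40 *gst* genes (rows) in each of the 8 comparisons (columns; ctl-1 stands for the libraries labelled *ctl-1*), with triangles up for genes called higher, triangles down for genes called lower and gray for genes not in the table. Dark red cells stand in the *nuo-6*, *daf-2* and *prdx-2* columns. *gst-12* reached 4.0 in *prdx-2*, *gst-33* 3.78 in *nuo-6* and *gst-14* 3.64 in *daf-2* worms. The *gst-14* row is called higher in 5 columns.

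Within the run of 6 neighbours on chromosome II, *gst-14* (II:13614781-13616100, minus strand) was called in 5 strains. Here and below, groups of 6 are given by their lowest, median and highest library where not all 6 values are listed, and groups of 3 by each library. *gst-14* was at 0.808, 1.25 and 1.74 normalized CPM in *clk-1* worms, 1.58, 2.29 and 3.72 in those of *isp-1*, 1.93, 3.49 and 6.84 in *nuo-6* and 4.34, 5.73 and 17.4 in *daf-2* worms, against 0, 0.102 and 0.238 in wild-type worms. In *prdx-2* worms it was at 12, 7.48 and 2.32. All libraries of these 5 strains lay above every wild-type library, and the wild-type libraries together held only 16 reads of the gene. On the log2 scale the change was 1.48 ± 0.29 (SE; adjusted p = 0.0006) for *clk-1*, 2.26 ± 0.29 (adjusted p = 4e-07) in *isp-1*, 2.83 ± 0.29 (adjusted p = 1.98e-09) in *nuo-6*, 3.64 ± 0.29 (adjusted p = 3.43e-12) in *daf-2* and 3.43 ± 0.36 (adjusted p = 1.46e-08) in *prdx-2* worms. Because 0.5 is added before the logarithm, these values understate the ratios of the means, which were 11, 22.2, 36.8, 72.4 and 65.3 for these strains, in that order. In *sod-2* worms *gst-14* was uneven, at 0.612, 5.33, 1.17, 4.97, 1.44 and 0.386, against 0.487, 0.335, 0.104, 0.145, 0.0379 and 0.148 in wild-type worms, and did not pass the test (adjusted p = 0.0652; edgeR 0.0219).

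*gst-12* (II:13616682-13618061, minus strand), its neighbour, had 74, 34.7 and 20.1 normalized CPM in the 3 *prdx-2* libraries, against 1.91, 1.95, 1.43, 2.24, 1.72 and 2.0 in wild-type worms. This was the largest increase of any member in *prdx-2* worms, at a log2 fold change of 4.0 ± 0.52 (adjusted p = 1.4e-06). In *nuo-6* worms it was at 4.35, 9.49 and 16.9 (lowest, median and highest library), all above wild type, with a log2 fold change of 2.01 ± 0.42 (adjusted p = 0.00029). In *isp-1* worms it was at 2.47, 4.99 and 8.68, again all above wild type, with 1.17 ± 0.42 (adjusted p = 0.0439), a call that was lost when any of 11 of the 12 libraries was left out, with log2 fold changes of 1.02 to 1.22, and also with a pseudocount of 0.1. *daf-2* worms were at 0.214, 2.01 and 15.4 and did not pass the test (adjusted p = 0.529).

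*gst-20* (II:13608154-13609824, minus strand) was called in 4 strains of the larger table. It was at 32.7, 42.8 and 83.8 normalized CPM in *isp-1*, 28.8, 57.9 and 69 in *nuo-6* and 52.2, 75.5 and 99.6 in *daf-2* worms, against 11, 18.6 and 25.9 in wild-type worms. The 3 *prdx-2* libraries had 52.2, 67.6 and 40.5. None of the libraries of these 4 strains overlapped with wild type. The log2 fold change was 1.43 ± 0.23 in *isp-1* (adjusted p = 1.77e-05), 1.6 ± 0.23 in *nuo-6* (adjusted p = 1.11e-06), 2.09 ± 0.23 in *daf-2* (adjusted p = 6.99e-09) and 1.57 ± 0.28 in *prdx-2* worms (adjusted p = 0.000219).

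*gst-15* (II:13611770-13613196, minus strand) gave a similar set of calls. It was at 7.71, 8.89 and 17 in *isp-1*, 6.7, 7.76 and 9.67 in *nuo-6* and 3.26, 10.6 and 13.6 in *daf-2* worms, against 1.39, 2.06 and 2.74 in wild-type worms, with no overlap. Its log2 fold change was 1.99 ± 0.27 (adjusted p = 9.06e-07), 1.73 ± 0.27 (adjusted p = 4.14e-06) and 1.76 ± 0.27 (adjusted p = 3.19e-06) for these strains, in that order. The 3 *prdx-2* libraries had 15.3, 5.08 and 3.66, which is 1.49 ± 0.33 above wild type (adjusted p = 0.00219), and without *prdx-2* replicate 1 the change was 0.92 and no longer passed the test.

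*gst-24* (II:13610443-13611366, minus strand) was called in *clk-1* as well, but its libraries overlapped with wild type in each strain where it was called. It was at 32.5, 8.27, 28.8, 7.57, 9.37 and 9.16 normalized CPM in *clk-1* worms, against 2.28, 3.3, 5.03, 3.64, 3.85 and 12 in wild-type worms. Replicates 1 and 3 of *clk-1* were far above the other *clk-1* libraries, and replicate 12 above the other wild-type libraries. The log2 fold change was 1.49 ± 0.43 in *clk-1* (adjusted p = 0.0221), and the call was lost without *clk-1* replicate 1, *clk-1* replicate 3, wild-type replicate 7 or wild-type replicate 8, with changes of 1.2 to 1.42. It was 1.17 ± 0.43 in *isp-1* (adjusted p = 0.0462; lost without any of 9 of the 12 libraries, with 0.85 to 1.21, and with a pseudocount of 1), 2.0 ± 0.43 in *nuo-6* (adjusted p = 0.000356) and 2.27 ± 0.52 in *prdx-2* worms (adjusted p = 0.00337), but -0.11 ± 0.43 in *daf-2* worms. In the direct contrast of *daf-2* minus *nuo-6*, every *daf-2* library of *gst-24* lay below every *nuo-6* library, at a difference of -2.11 ± 0.43 (adjusted p = 0.0002).

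*gst-16* completed the run and was called in *prdx-2*, at 16.3, 9.85 and 8.0, and in *daf-2*, at 2.57, 3.94 and 6.87, against 1.19, 1.74 and 2.74 in wild-type worms. All 6 genes of the run were upregulated in *prdx-2* worms (background 6.51%), 5 of 6 in *isp-1* (background 11%) and 5 of 6 in *nuo-6* worms (background 22.5%). In *daf-2* worms 4 of 6 were upregulated (background 17.4%), in *clk-1* 2 of 6 (background 6.0%) and in *sod-2* 2 of 6 (background 2.34%). The count was 0 in *sod-1* worms (background 0.606%) and in the libraries labelled *ctl-1* (background 1.05%). The median change over the 6 was 2.28 in *prdx-2*, 1.86 in *nuo-6*, 1.4 in *daf-2* and 1.3 in *isp-1* worms. Tandem copies can share sequence. The counting took uniquely mapped reads only, so reads that match several copies were left out, and levels of single genes in a run are uncertain to that extent.

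**Figure D3:**
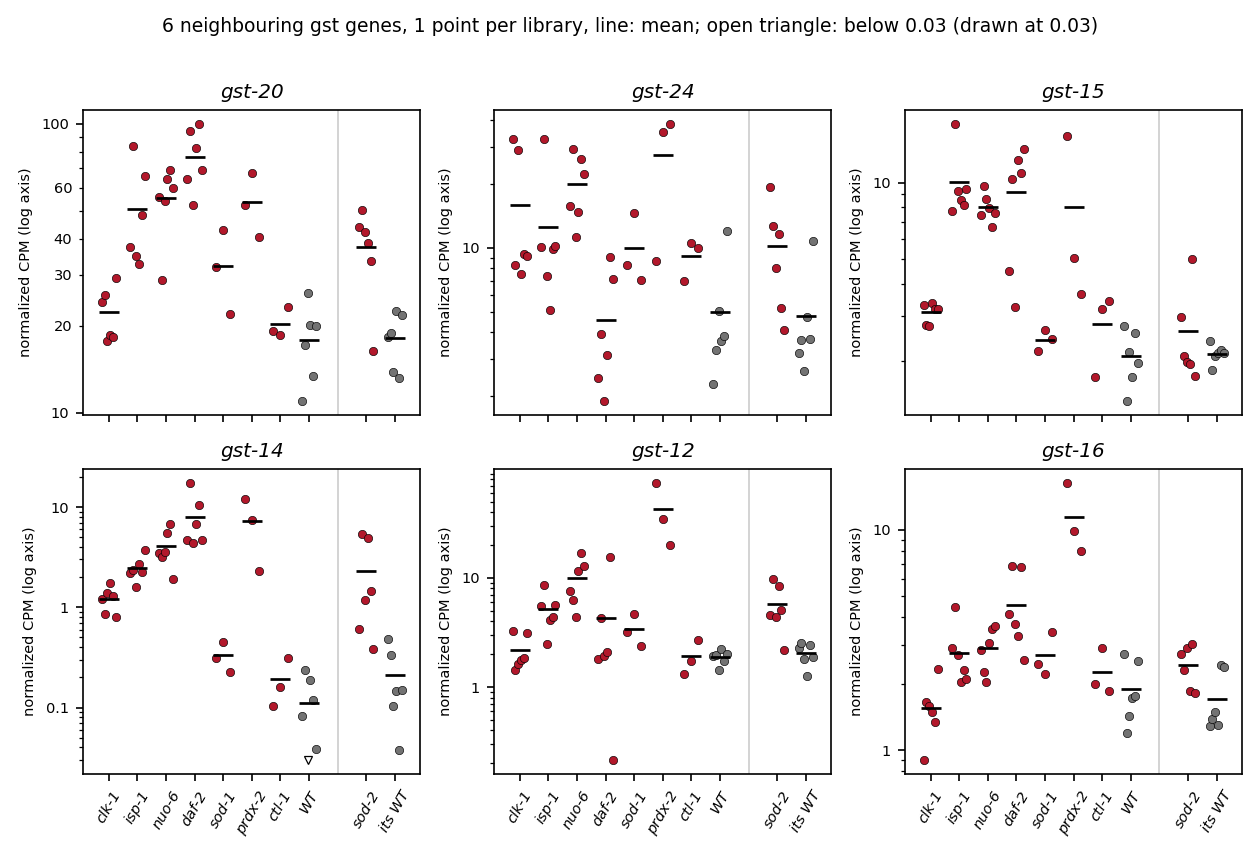
Normalized CPM (log axis) of 6 neighbouring *gst* genes on chromosome II in every library (red points, mutants, where ctl-1 stands for the libraries labelled *ctl-1*; gray points, wild type; line, mean of the group), in the order in which they lie. *gst-14* in wild-type worms is at or below 0.238 and its *daf-2* points start at 4.34, while the *gst-12* points of *prdx-2* run from 20.1 to 74.

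Outside this run, 3 genes were called higher in 4 comparisons each. *gst-41* (V:7398396-7399302, minus strand) was at 2.48, 3.24 and 3.81 normalized CPM in *isp-1*, 4.5, 5.13 and 5.82 in *nuo-6* and 2.64, 4.52 and 10.3 in *daf-2* worms, against 0.513, 1.43 and 2.12 in wild-type worms, with no overlap. Its log2 fold change was 1.05 ± 0.25 in *isp-1*, 1.63 ± 0.25 in *nuo-6* and 1.51 ± 0.25 in *daf-2* worms (adjusted p = 0.00273, 4.19e-06 and 1.38e-05). In *prdx-2* worms it was at 6.25, 2.26 and 2.25, a change of 1.04 ± 0.31 (adjusted p = 0.0214) that fell to 0.61 and below the threshold without *prdx-2* replicate 1 and was also lost without wild-type replicate 10 and in a fit of *prdx-2* and wild-type worms alone.

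*gsto-2* (III:8554772-8555744, plus strand), an omega-class gene, was at a low level throughout. It was at 0.430, 0.574 and 0.767 in *isp-1*, 0.580, 0.952 and 1.13 in *nuo-6* and 0.303, 0.531 and 2.19 in *daf-2* worms, against 0.0433, 0.196 and 0.233 in wild-type worms, where the 6 libraries together held 25 reads. The 3 *prdx-2* libraries had 1.98, 2.08 and 0.797. All libraries of these 4 strains lay above wild type. The log2 fold change was 0.69 ± 0.2 in *isp-1* (adjusted p = 0.0112), 1.01 ± 0.2 in *nuo-6* (adjusted p = 0.000106), 0.89 ± 0.2 in *daf-2* (adjusted p = 0.000569) and 1.6 ± 0.24 in *prdx-2* worms (adjusted p = 1.94e-05).

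*gst-31* (II:15174229-15174965, minus strand), at the end of the other run of 6, was at 0.665, 1.11 and 1.32 normalized CPM in *isp-1*, 0.642, 2.02 and 4.31 in *nuo-6* and 0.543, 1.55 and 3.49 in *daf-2* worms, against 0.0829, 0.236 and 0.607 in wild-type worms. The *isp-1* and *nuo-6* libraries did not overlap with wild type and those of *daf-2* did. Its log2 fold change was 1.03 ± 0.29 (adjusted p = 0.0105), 1.74 ± 0.29 (adjusted p = 1.48e-05) and 1.37 ± 0.29 (adjusted p = 0.000389) for these strains, in that order. It was 1.67 ± 0.36 in *prdx-2* worms (adjusted p = 0.00176), with 2.44, 3.0 and 0.869 in the 3 libraries.

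Members of the run in which *gst-31* lies were called in both directions in *prdx-2* worms. *gst-26* (II:15163817-15164553, minus strand) had 12.4, 15.6 and 14.1 normalized CPM in *prdx-2* worms, against 39, 45.6, 57.2, 68.7, 42 and 28.4 in wild-type worms. *gst-27* (II:15164890-15165731, minus strand), next to it, had 26.1, 22.5 and 22.4 in *prdx-2* worms, against 42.9, 53.7, 68.8, 74.8, 49 and 41.1 in wild-type worms. Both were lower in every *prdx-2* library than in any wild-type library, with log2 fold changes of -1.65 ± 0.38 (adjusted p = 0.00303) for *gst-26* and -1.17 ± 0.28 (adjusted p = 0.00453) for *gst-27*. *gst-39*, in the same run, had 28.5, 56.7 and 23.4 in *prdx-2* worms, all above the 9.73, 13.6 and 22.5 (lowest, median and highest library) of wild-type worms. Neighbours in this run were thus called in opposite directions in the same 3 libraries.

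In the libraries labelled *ctl-1*, *gst-27* was the only member called, at 32.1, 21.8 and 26.9 normalized CPM and all below wild type, with a log2 fold change of -1.0 ± 0.28 (adjusted p = 0.0451). That call was lost when any of 7 of the 9 libraries was left out. *gst-26* had 25.8, 20.8 and 23.3 there, also all below wild type, and did not pass the test (adjusted p = 0.204). In all, 5 members had their 3 libraries below every wild-type library in this comparison, where 7.45% of all genes did. The summed intestinal markers were 1348 to 1478 in these libraries, against 1597 to 2976 in wild-type worms, and 1 of 5 of them was called lower. The summed hypodermal markers were 833 to 1226, against 1915 to 3232 in wild-type worms, and 1 of 5 was called lower. Neither sum overlapped with wild type, and their part in the result was not tested.

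Other members were also upregulated in *prdx-2* worms. *gst-30* had 11, 7.02 and 8.94 normalized CPM in *prdx-2* worms and 0.477 to 1.16 in wild-type worms, a log2 fold change of 2.82 ± 0.29 (adjusted p = 1.22e-08). *gst-7*, among the most abundant members per kb, had 247, 411 and 228 in *prdx-2* worms and 39.8 to 105 in wild-type worms, with 2.03 ± 0.28 (adjusted p = 3.65e-06). *gst-35* was called in *prdx-2* worms alone, at 7.12, 6.18 and 5.29, against 1.04 to 3.4 in wild-type worms (1.35 ± 0.29, adjusted p = 0.00187); the difference of this change from that in the other strains was not tested. All libraries of the strain lay above every wild-type library for 17 of 38 members in *prdx-2* (9.43% of all genes), 12 in *isp-1* (7.69%), 12 in *nuo-6* (9.38%), 8 in *daf-2* (7.24%) and 1 in *clk-1* worms (4.43%).

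In 3 members, which were chosen for calls in opposite directions with the contrast between the strains called, the direction depended on the strain. *gst-6* (II:4879891-4881105, plus strand) was at 21.7, 31.1 and 46.3 normalized CPM in *isp-1*, 19.6, 46.9 and 59.5 in *nuo-6* and 7.94, 13 and 14.7 in *daf-2* worms, against 13.2, 18.1 and 29 in wild-type worms. The log2 fold change was 0.69 ± 0.24 in *isp-1* (adjusted p = 0.0379), 1.06 ± 0.24 in *nuo-6* (adjusted p = 0.000699) and -0.64 ± 0.24 in *daf-2* worms (adjusted p = 0.0373). Each of these groups overlapped with wild type, and the *isp-1* call was lost without any of 8 of the 12 libraries, the *daf-2* call without any of 5. Every *daf-2* library lay below every *isp-1* and every *nuo-6* library, with -1.33 ± 0.24 for *daf-2* minus *isp-1* (adjusted p = 5.17e-05) and -1.7 ± 0.24 for *daf-2* minus *nuo-6* (adjusted p = 8.76e-07). In *prdx-2* worms *gst-6* had 42.8, 65 and 35.2, all above wild type, and was called higher (1.23). That call was lost without *prdx-2* replicate 2 (0.99).

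*gst-22* (V:16231032-16232282, minus strand) was at 1.58, 3.03 and 3.6 in *daf-2* worms, against 4.77, 5.65 and 7.24 in wild-type worms, with no overlap. This was the largest decrease of a member in *daf-2* worms, at -0.94 ± 0.22 on the log2 scale (adjusted p = 0.000867). In *nuo-6* worms it was at 5.92, 8.84 and 18.8, a change of 0.68 ± 0.22 (adjusted p = 0.0132) that was 0.49 and below the threshold without *nuo-6* replicate 1. The contrast of *daf-2* minus *nuo-6* was -1.61 ± 0.22 (adjusted p = 3.04e-07), with all *daf-2* libraries below all *nuo-6* libraries. *gst-22* was called in *sod-2* worms too, at 10.6, 8.25, 9.76, 8.6, 8.38 and 9.38, all above the 4.7, 7.46, 5.11, 6.53, 4.06 and 7.21 of their wild-type worms (0.63 ± 0.15, adjusted p = 0.0429). That call was lost by edgeR (adjusted p = 0.0545), with scaling by the median of ratios, with a replicate block, in the earlier table of the same libraries and without any of 10 of the 12 libraries.

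*gst-38* (V:15915162-15916070, minus strand) was at 1.66, 2.11 and 3.46 normalized CPM in *clk-1*, 4.58, 10.5 and 15 in *nuo-6* and 1.18, 2.67 and 4.69 in *daf-2* worms, against 3.03, 4.49 and 8.19 in wild-type worms. It was called lower in *clk-1* (-0.93 ± 0.29, adjusted p = 0.0393) and *daf-2* worms (-0.8 ± 0.29, adjusted p = 0.0311) and higher in *nuo-6* worms (0.9 ± 0.29, adjusted p = 0.0142). The calls in *clk-1* and *daf-2* worms were lost without any of 7 and 6 of the 12 libraries, and that in *daf-2* worms also in a fit of *daf-2* and wild-type worms alone. The contrast of *nuo-6* minus *clk-1* was 1.83 ± 0.29 (adjusted p = 2.14e-05), with no overlap, and that of *daf-2* minus *nuo-6* was -1.71 ± 0.29 (adjusted p = 1.86e-05). In *prdx-2* worms *gst-38* had 19.8, 57.1 and 44.1, far above wild type (2.85 ± 0.36, adjusted p = 8.08e-07).

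**Figure D4:**
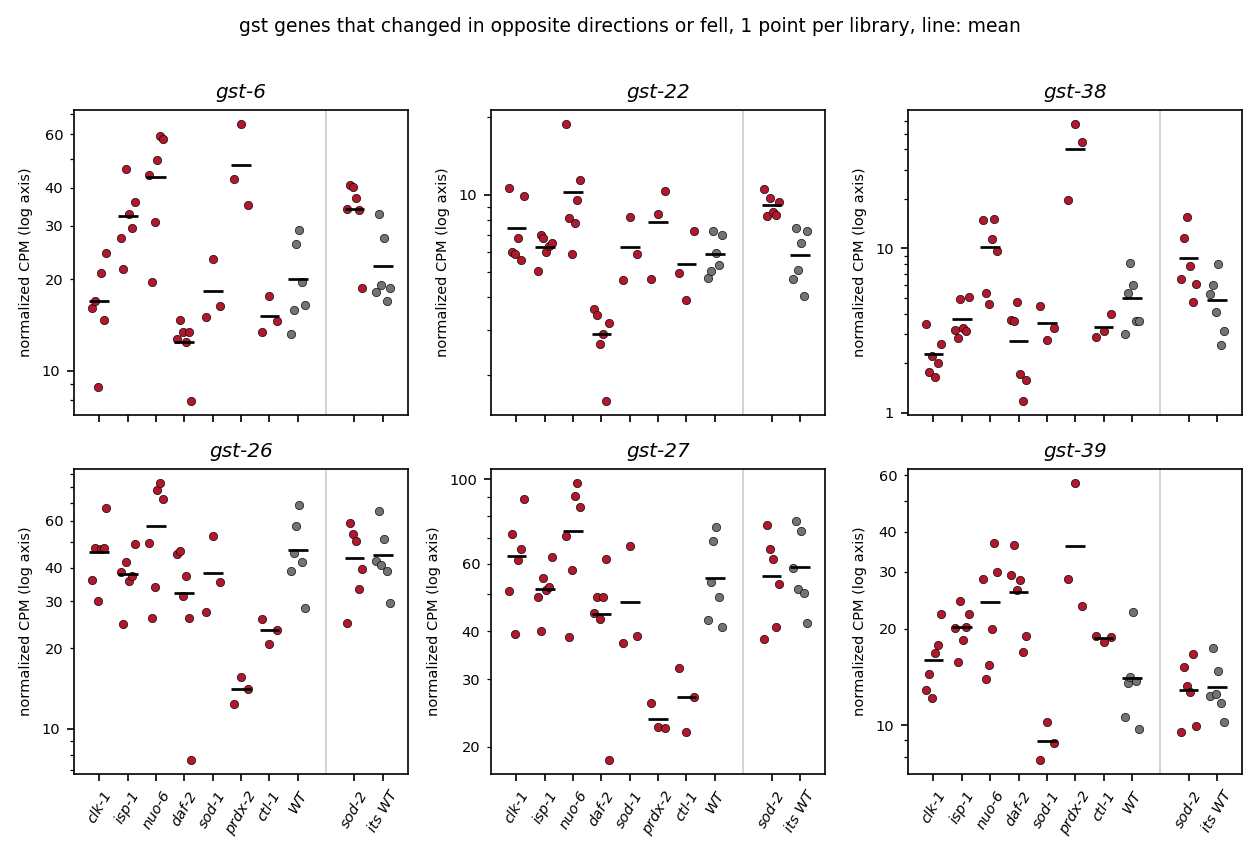
Normalized CPM (log axis) in every library (red points, mutants, where ctl-1 stands for the libraries labelled *ctl-1*; gray points, wild type; line, mean of the group) of *gst-6*, *gst-22* and *gst-38*, which were called in opposite directions in different strains, and of *gst-26*, *gst-27* and *gst-39*, which lie in 1 run on chromosome II. The *daf-2* points of *gst-6* (7.94 to 14.7) lie below the *nuo-6* points (19.6 to 59.5), and the *prdx-2* points of *gst-26* (12.4 to 15.6) below the wild-type points (28.4 to 68.7).

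The members that were given a class above are described next, apart from *gsto-2*. *gst-1* and *gst-10*, the pi-class genes and the most abundant members per kb, were called in no comparison, with log2 fold changes from -0.68 to 0.5 for *gst-1* and from -0.66 to 0.29 for *gst-10*. *gst-42*, a zeta-class gene, was upregulated in *nuo-6* worms, at 48.3, 63 and 67.6 normalized CPM, and in *daf-2* worms, at 46.9, 55.5 and 69.2, against 23.6, 28 and 52.1 in wild-type worms, with changes of 0.92 ± 0.15 (adjusted p = 1.47e-05) and 0.82 ± 0.15 (adjusted p = 7.56e-05). *gst-43* was called in no comparison. Of the kappa-class genes, *gstk-1* was upregulated in *daf-2* worms (0.79), at 29.8 to 48.2, against 16.6 to 29.3 in wild-type worms, and *gstk-2* in *nuo-6* (0.66) and *daf-2* worms (0.56). Of the *gsto* genes other than *gsto-2*, *gsto-1* was upregulated in *isp-1* (1.15) and *nuo-6* worms (0.99) and *gsto-3* was called in no comparison, its changes lying between -0.07 and 0.36. The other members called in no comparison were *gst-2*, *gst-25*, *gst-28* and *gst-36*.

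*gst-33* (V:3467451-3468562, minus strand) and *gst-44* (V:16390891-16392490, plus strand), which were singled out after their values were seen, were uneven within strains. In *nuo-6* replicates 1 to 6, *gst-33* had 56.1, 2.68, 8.76, 17.4, 200 and 79.2 normalized CPM and *gst-44* had 35.6, 1.36, 5.63, 6.78, 114 and 33.4. In wild-type replicates 7 to 12, *gst-33* had 0.705, 2.94, 1.65, 1.59, 1.4 and 1.46 and *gst-44* had 1.37, 1.31, 0.564, 0.559, 0.561 and 0.923. The same *nuo-6* libraries were high for both genes, and replicate 2 was low for both.

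A single library stood apart in 2 other strains. In *daf-2* replicate 5, *gst-33* had 122 and *gst-44* had 63.4, while the other 5 *daf-2* libraries were at or below 4.98 and 3.99. In *sod-2* replicate 2, *gst-33* had 41.4 and *gst-44* had 17.9, while the other 5 *sod-2* libraries were at or below 2.16 and 1.26. In *prdx-2* worms, *gst-33* had 116, 63 and 2.17 and *gst-44* had 21.8, 15.9 and 1.09. Of the 39 mutant libraries of both tables, 18 were above the highest of all 12 wild-type libraries for *gst-33* and 13 were for *gst-44*, and all 13 of these were also above it for *gst-33*. *gst-5* and *gst-12* had their highest *daf-2* value in the same library, replicate 5, at 171 and 15.4.

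The log2 fold change in *nuo-6* worms was 3.78 ± 0.97 for *gst-33* (adjusted p = 0.00235) and 3.49 ± 0.82 for *gst-44* (adjusted p = 0.00104), and without replicate 5 it was 3.22 and 2.91, still called. In *prdx-2* worms *gst-33* was at 3.74 ± 1.19 (adjusted p = 0.0326), and the call was lost without *prdx-2* replicate 1 (2.68), *prdx-2* replicate 2 (3.12) or wild-type replicate 7 (3.59), while *gst-44* did not pass (adjusted p = 0.0795; edgeR 0.0227). In *daf-2* worms neither passed limma, with adjusted p = 0.439 for *gst-33* and 0.492 for *gst-44*, and both passed edgeR, with 0.0103 and 0.0068. Exons of *gst-44* overlap with those of *srd-63* on the other strand, and 7 members in all have such an overlap with a coding gene (*gst-5*, *gst-22*, *gst-36*, *gst-40*, *gst-44*, *gstk-2* and *gsto-1*). The library kit keeps the strand, but the strand setting of the counting is not given in the sources used here, so reads of such pairs cannot be told apart with certainty.

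**Figure D5:**
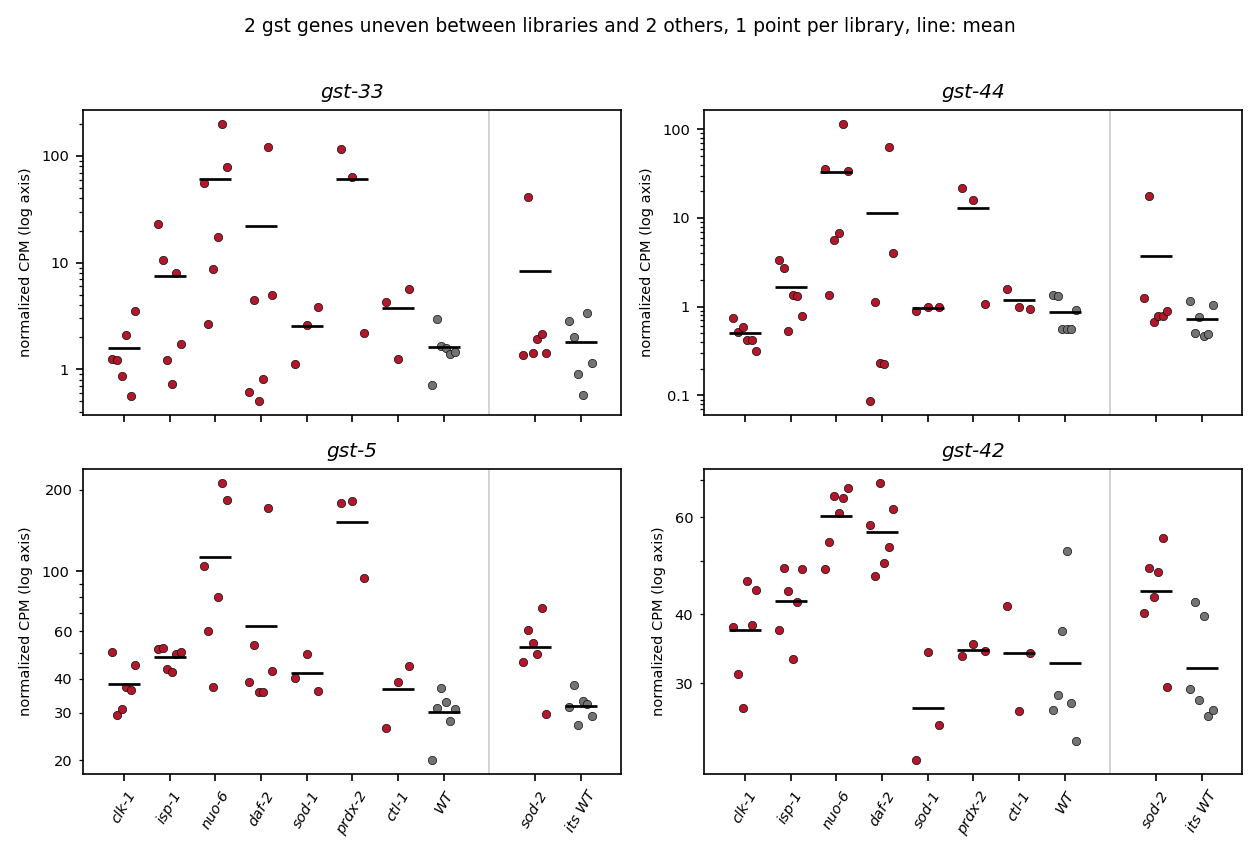
Normalized CPM (log axis) in every library (red points, mutants, where ctl-1 stands for the libraries labelled *ctl-1*; gray points, wild type; line, mean of the group) of *gst-33* and *gst-44*, of *gst-5* and of the zeta-class gene *gst-42*. *gst-33* spans 2.68 to 200 within *nuo-6* and 0.504 to 122 within *daf-2* worms, whereas *gst-42* stays between 48.3 and 67.6 in *nuo-6* worms.

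The mutants were also compared with each other within the fit of 39 libraries. *nuo-6* worms had 18 members above *clk-1* worms (background 12.9%) and 0 below (background 7.26%; also 0 at an unadjusted p under 0.05 and 0 by edgeR). Between *isp-1* and *clk-1* worms, 4 members were higher in *isp-1* (*gst-6*, *gst-15*, *gst-20* and *gsto-1*; background 1.98%) and 0 lower (background 1.25%; also 0 at an unadjusted p under 0.05 and 0 by edgeR), and the total was 9 in a fit of these groups alone and 2 without *isp-1* replicate 3. *nuo-6* worms had 4 members above *isp-1* worms (*gst-5*, *gst-38*, *gst-42* and *gst-44*; background 12.2%), which is near the background, and 2 without *isp-1* replicate 4, and 0 were below (background 4.97%; 1 at an unadjusted p under 0.05 and 0 by edgeR). *daf-2* worms had 15 members above and 4 below *clk-1* worms (background 18.3% and 18.8%), and 7 above and 7 below *isp-1* worms (background 19.9% and 18%). Against *nuo-6* worms, *daf-2* worms had 5 members higher (background 13.3%) and 15 lower (2587 of all 14033 genes were lower), 20 in all (background 31.7% for both directions), and 8 in all in a fit of these groups alone. The shares of all genes called in the fits of 2 groups alone are not given here.

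*gst-14* was higher in *daf-2* worms than in *clk-1* (2.16 ± 0.29, adjusted p = 4.1e-07), *isp-1* (1.38 ± 0.29, adjusted p = 0.000321) and *nuo-6* worms (0.81 ± 0.29, adjusted p = 0.0306). *gst-23*, *gst-29* and *gstk-1* were likewise called higher in *daf-2* worms than in each of these 3 strains. However, 0 of the 38 members had every *daf-2* library above every *nuo-6* library (3.69% of all genes did). *gst-22*, *gst-24* and *gst-30* were called lower in *daf-2* worms than in each of them. The *daf-2* libraries of *gst-24* overlapped with *clk-1* and *isp-1* libraries. Those of *gst-30*, at 0 to 1.1 normalized CPM, overlapped with all 3 strains. Which of these calls held in fits of 2 groups alone is not given here. *gst-13*, one of the more abundant members per kb, was at 87.9 to 142 normalized CPM in *isp-1*, 82 to 196 in *nuo-6* and 45.8 to 63.5 in *daf-2* worms, against 33.4 to 75.6 in wild-type worms, and *daf-2* minus *nuo-6* was -1.23 ± 0.2 (adjusted p = 1.01e-05).

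In *sod-2* worms the 3 called members were *gst-12*, *gst-20* and *gst-22*. *gst-12* had 4.56, 9.82, 4.41, 8.47, 5.04 and 2.2 normalized CPM, against 2.3, 2.56, 1.81, 1.27, 2.43 and 1.87 in their wild-type worms, with overlap only through replicate 6 of *sod-2* (1.19 ± 0.28, adjusted p = 0.0398). *gst-20* had 44, 50.2, 42.3, 38.8, 33.5 and 16.4, against 18.3, 18.9, 13.9, 22.5, 13.2 and 21.8 (0.98 ± 0.24, adjusted p = 0.0467), and *sod-2* replicate 6 again was the only library within the wild-type range. These calls sat near the threshold: *gst-12* was lost without any of 9 of the 12 libraries, *gst-20* without any of 11 and *gst-22* without any of 10, and the count was 0 without *sod-2* replicate 2, 3, 4 or 5 or wild-type replicate 1, 3 or 4, 1 without wild-type replicate 5 or 6, and 6 without *sod-2* replicate 6. At an unadjusted p under 0.05, 15 members were higher. The share of all genes at that threshold is not given here, so this count has no background to be read against. None of the 8 lists of tissue markers had a called gene in *sod-2* worms.

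In *sod-1* worms the largest increase was that of *gst-24*, which did not pass the test, at 8.31, 14.6 and 7.03 against 2.28 to 12 in wild-type worms (1.04 ± 0.52, adjusted p = 0.371). *gst-20* had 32, 42.9 and 22, against 11 to 25.9 (0.83 ± 0.28, adjusted p = 0.12). The 95% intervals of these changes ran from -0.02 to 2.11 for *gst-24* and from 0.26 to 1.4 for *gst-20*.

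Other genes of glutathione metabolism were read from a list of 30 genes, of which 29 were in the larger table. In *nuo-6* worms 10 of 29 were higher and 1 lower (22.5% and 14% of all genes), and in *isp-1* worms 7 were higher and 1 lower (11% and 10.3%). In *prdx-2* worms 5 were higher and 2 lower (6.51% each), and in *clk-1* worms 3 were higher and 0 lower (6.0% and 2.27%). In *daf-2* worms 2 were higher and 7 lower (17.4% and 16.3%). None was called in *sod-1* worms, in the libraries labelled *ctl-1* or in *sod-2* worms (2, 4 and 2 at an unadjusted p under 0.05, and 0 each by edgeR).

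*gcs-1*, the catalytic subunit of the rate-limiting enzyme of glutathione synthesis, was at 212 ± 36.9 normalized CPM in *prdx-2* worms, against 113 ± 10.2 in wild-type worms (0.89 ± 0.11, adjusted p = 2.7e-07), and was also higher in *isp-1* (0.29) and *nuo-6* worms (0.37). *wdr-23*, the repressor of SKN-1, was at 129 ± 18.8 in *prdx-2* worms, against 62.1 ± 5.85 (1.05 ± 0.16, adjusted p = 2.19e-05). *wdr-23* was also called higher in *clk-1* (0.41), *isp-1* (0.35, adjusted p = 0.0499) and *nuo-6* worms (0.41). *mrp-2*, an ABC transporter of the family that exports conjugates, was at 58.7 ± 8.63 in *prdx-2* worms, against 22.1 ± 4.81 (1.4 ± 0.24, adjusted p = 9.93e-05). *gpx-8*, of the glutathione peroxidase family, was at 6.31 ± 1.79 in *nuo-6* worms, against 0.730 ± 0.353 (2.46 ± 0.2, adjusted p = 9.34e-12). *gpx-8* was also called higher in *isp-1* (1.31) and *clk-1* worms (0.66).

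In *daf-2* worms, where 15 *gst* genes were higher, the genes of glutathione synthesis *gss-1* (-0.42) and *E01A2.1* (-0.45), the exporters *mrp-3* (-1.05) and *mrp-8* (-0.5) and the glutaredoxins *glrx-3* (-0.29), *glrx-5* (-0.56) and *glrx-22* (-0.37) were lower, and the peroxidase genes *gpx-5* (0.49) and *gpx-6* (1.2) were higher. Some of these genes were called in other strains too. *gpx-6* was also higher in *nuo-6* (1.2), *isp-1* (0.91) and *clk-1* worms (0.79). *glrx-3* was also lower in *prdx-2* (-0.27), *isp-1* (-0.24) and *nuo-6* worms (-0.18). *glrx-5* went the other way in *nuo-6* (0.7) and *isp-1* worms (0.36), where it was called higher. *gsr-1*, glutathione reductase, which returns oxidized glutathione to the reduced form, passed the test in none of the 8 strains.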

How the data were processed

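RNA of whole worms was sequenced from 51 libraries. The authors aligned reads to WBcel235 with STAR 2.5.2b, which counts uniquely mapped reads per gene, and scaled and filtered them with edgeR 3.20.1. The deposited signal values are normalized CPM, from which whole reads were recovered for 99.96% or more of the values of a library (within 0.05 of a read). The deposited counts of an earlier table of the 12 *sod-2* and wild-type libraries, named CPM but whole numbers, were used as an alternative; CPM had been assumed for it.

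Because the values are normalized, the authors' count test was an alternative, and values were tested here as log2(normalized CPM + 0.5) with limma 3.58.1 in R 4.3.3, 1 fit per table, two-sided, with Benjamini-Hochberg adjustment over all genes and a threshold of 0.05. Such fold changes understate those of low genes. By rule, 13 genes were given with full values. The rule took genes called the same way in at least 4 of 8 comparisons and those with the largest separated change of a comparison. It also took genes called in opposite directions in 2 strains with the contrast between them called. Library values of other genes, such as *gst-7*, *gst-16*, *gst-30*, *gst-35*, *gst-39* and *gst-42*, were given outside this rule. *gst-33* and *gst-44* were singled out after their values were seen. Members and lists were chosen with earlier results of these data known. Alternatives were edgeR 4.0.16 on recovered reads, other pseudocounts (0.1 and 1), a mean of at least 1, other scaling, the groups of a comparison alone, a replicate block and leaving out each library. Positions are from Ensembl 115, whereas the authors used Ensembl 89. No 2 libraries of the same group were alike within counting noise, and libraries of different groups were not compared in this way.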

Additional observations from a re-analysis of the deposited data

Results flagged for a closer look

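In 14 of 103 groups of 6 libraries a single library stood apart from the other 5 by Dixon's criterion. Its cutoff is set for 1 in 20 groups of independent, normally distributed values. Here it was applied to values without a logarithm, and the genes were read in the same libraries. The count therefore cannot be set against that rate and is a description. *gst-33* and *gst-44* were picked for their uneven values, and without them it was 9 of 89 groups. For *gst-6* these were *daf-2* replicate 6, at 7.94 normalized CPM, and *sod-2* replicate 6, at 18.6. For *gst-12* it was *daf-2* replicate 5, at 15.4. For *gst-15* these were *isp-1* replicate 2, at 17.0, and *sod-2* replicate 5, at 5.0. For *gst-24* these were *isp-1* replicate 2, at 32.5, wild-type replicate 12, at 12, and replicate 6 of the wild-type worms sequenced with *sod-2*, at 10.7. For *gst-33* these were *daf-2* replicate 5, at 122, and *sod-2* replicate 2, at 41.4. For *gst-44* these were *nuo-6* replicate 5, at 114, *daf-2* replicate 5, at 63.4, and *sod-2* replicate 2, at 17.9. For *gsto-2* it was wild-type replicate 9, at 0.0433.

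For 3 genes the effects of 2 strains had opposite signs. These genes were chosen for that and for a called contrast between the strains, so the contrasts are a description. For *gst-6*, *daf-2* minus *isp-1* was -1.33 and *daf-2* minus *nuo-6* was -1.70 on the log2 scale. For *gst-22*, *daf-2* minus *nuo-6* was -1.61. For *gst-38*, *nuo-6* minus *clk-1* was 1.83 and *daf-2* minus *nuo-6* was -1.71.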

How the results depend on the processing

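Of 875 values of named genes under the alternatives, 771 kept direction and call, 104 kept direction but lost the call and 0 reversed. In fits of the compared groups alone, 5 members were higher in *clk-1* worms, 2 were lower in the libraries labelled *ctl-1*, 9 differed between *isp-1* and *clk-1* and 8 between *daf-2* and *nuo-6* worms, against 2, 1, 4 and 20 in the fit of all libraries. The shares of all genes called in those fits are not given here. Leaving out 1 library at a time gave 1 to 3 members higher and 0 to 1 lower in *clk-1*, 11 to 15 higher in *isp-1*, 21 to 26 higher in *nuo-6*, 14 to 16 higher and 1 to 5 lower in *daf-2*, 15 to 19 higher and 2 lower in *prdx-2* worms, 0 to 2 lower in the libraries labelled *ctl-1* and 0 to 6 higher in *sod-2* worms. Between mutants it gave 2 to 6 for *isp-1* and *clk-1*, 16 to 21 for *nuo-6* and *clk-1*, 2 to 6 for *nuo-6* and *isp-1*, 16 to 21 for *daf-2* and *clk-1*, 11 to 14 for *daf-2* and *isp-1* and 14 to 21 for *daf-2* and *nuo-6* worms. The cause was not tested. Libraries of *sod-2* and wild-type worms with the same number had correlations from -0.139 to 0.731, and the same number was the best match for 1 of 6. Between pairs of the other mutants with 6 libraries it was the best match for 0 to 2 of 6. Replicate numbers were therefore not used as pairs in the main fits. Whether libraries of the same number shared a culture or a day cannot be told from these correlations. With a replicate block, 2 members were higher in *sod-2* worms, where *gst-20* (0.98) and *gst-22* (0.63) lost their calls, and 2 differed between *isp-1* and *clk-1*. No paired analysis was possible for the 7 comparisons with wild type in the larger table because the wild-type libraries share no numbers with the mutants. Genes with few reads, such as *gst-14* and *gsto-2* in wild-type worms (16 and 25 reads over 6 libraries), have levels set by counting error.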

Other observations

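The symbols *gst-8*, *gst-11*, *gst-34* and *gst-37* appeared only in the earlier table of the *sod-2* and wild-type libraries, with 52, 459, 80 and 9 reads summed over the 12 libraries. *gst-11* had 18 to 60 reads in every one of them.

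Single libraries were high or low for many members at once. In groups of 3, *sod-1* replicate 2 had the highest value for 25 of 38 members and *prdx-2* replicate 1 for 20. The lowest value was in *prdx-2* replicate 3 for 20 and in replicate 1 of the libraries labelled *ctl-1* for 20. In groups of 6, *isp-1* replicate 2 was highest for 17 of 38, *nuo-6* replicate 5 for 15, and *daf-2* replicate 5 and wild-type replicate 10 for 14 each. Replicate 2 of the wild-type worms sequenced with *sod-2* was highest for 18 of 39. *nuo-6* replicate 2 was lowest for 17 of 38 members, and *sod-2* replicate 6 for 17 of 39. Groups of 3 and of 6 cannot be set against each other here. The shares over all genes are not given, so these counts are a description.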
